A study of Mus musculus with 6 samples.

Results

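Rab proteins are small GTPases that mark the membranes of the secretory and endocytic routes. All members were found by gene symbol, as Rab followed by a number and an optional letter with no further suffix. The array carried 58 such probes for 57 genes, out of 23473 gene probes, and all 57 genes were above the detection limit on at least 3 of 6 arrays. RNA came from oligodendrocyte precursor cells, the progenitors of myelin-forming glia, isolated from the forebrain of E15.5 embryos of the Jcl:ICR mouse stock. All cultures received the growth factors FGF2 and PDGF-AA. One group of 3 was infected with a control retrovirus and the other group of 3 with a retrovirus knocking down Chd7, a chromatin remodeller, and cells were collected 3 days after infection. The sequence used for the knockdown, the share of infected cells and the origin of the replicates are not given in the labels, so the spread between arrays may be technical.

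Each Rab cycles between a GTP-bound form, loaded by an exchange factor (GEF), and a GDP-bound form, reached with the help of a GTPase-activating protein (GAP). In the GTP form it sits on its own compartment by a lipid anchor and recruits effectors, which are motors, tethers and coat regulators. In the GDP form it is extracted by GDI. Precursor cells and oligodendrocytes depend on these routes for receptor recycling and for moving membrane into growing processes.

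Chd7 was read first as a check of the labels. Here and throughout, log2 intensities are listed for replicates 1 to 3, first of the control and then, after "against", of the knockdown. Chd7 read 9.44, 9.20 and 9.47 against 8.54, 8.44 and 8.48, so no knockdown array reached a control array. Of the control signal, 54.3% remained (log2 fold change -0.88, SE 0.0855, adjusted p = 0.00112 in limma). A dimmer Chd7 probe gave -0.48. The intensities carry an offset of 50, which shrinks changes, and in the authors' processed values the brighter probe gave -1.03. Precursor markers were above the detection limit on every array for all 6 markers on the array, and 5 of them fell (Pdgfra, Lhfpl3, Sox10, Cspg4 and Olig2, with log2 fold changes from -1.36 to -0.35). The summed signal of all 6 above blank was 12479 to 14679 in the controls and 9596 to 11632 in the knockdown. Olig1, the brightest probe in that sum, did not pass (-0.24, adjusted p = 0.248). Of 10 neuron markers, all were detected on every array, 4 fell (Dcx, Gap43, Elavl3 and Elavl4), 6 did not pass (Tubb3 -0.20, Nefl -0.07, Stmn2 -0.02, Rbfox3 0.00093, Snap25 0.01 and Syt1 0.20) and none rose. Their sum, in which Gap43 had the brightest probe, was 2549 to 3646 in the controls against 1657 to 2353 in the knockdown. The sums of endothelial (24.0 to 42.6) and mural cell or fibroblast markers (50.1 to 67.0) were low in both groups, with Cldn5 under the limit on every array. Still, 1 of 4 endothelial and 4 of 5 mural cell or fibroblast markers were above the limit on every array. Microglial markers summed to 94.8 to 121.6, with Tmem119 under the limit on every array and 4 of 6 above it on every array. Astrocyte and oligodendrocyte markers overlapped between the groups in their sums (4112 to 5387 and 852 to 1342), and none of these 7 and 5 genes passed. With the replicate number as a block, which called 14.8% of all genes, Olig1 (adjusted p = 0.0371), Tubb3 (0.0330) and Slc1a2 (0.0163) also fell, and Syt1 (0.0170), Gjb6 (0.0181), Mog (0.0112) and Mobp (0.0119) rose. In bulk RNA, fewer cells of a type and less RNA per cell cannot be told apart.

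Of the 57 Rab genes, 10 passed an adjusted p below 0.05 in limma (17.5%, against 9.64% of the 17390 genes tested), 5 higher and 5 lower in the knockdown. The corresponding shares of all genes were 4.49% higher and 5.15% lower. Rab33a, Rab31, Rab11b, Rab3c and Rab39 fell, and Rab34, Rab38, Rab4b, Rab22a and Rab36 rose. The median log2 fold change over the 57 genes was 0.03, against 0.00077 over all genes, with a range from -1.04 to 0.35. A change of at least 0.5 on the log2 scale was reached by 1 Rab gene (1.75%) and by 300 of all genes (1.73%). For 24 Rab genes, every array of one group lay above every array of the other (42.1%, against 29.9% of all genes), and 14 of these 24 did not pass. Whether the share that passed exceeds the background was not tested, for the Rab genes or for any group below.

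**Figure D1:**
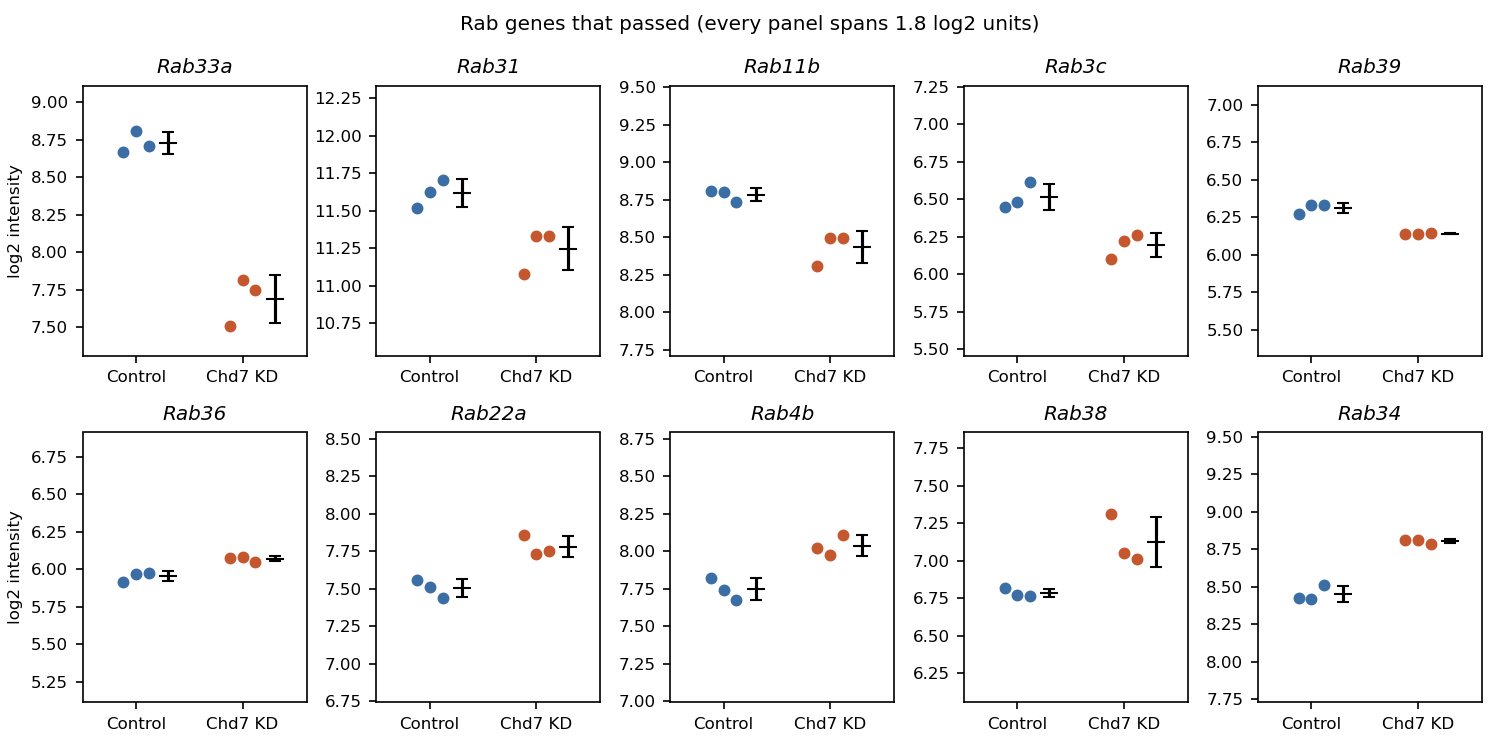
Log2 intensity of the 10 Rab genes that passed, by array (blue, control; orange, knockdown), with the mean and SD of 3 arrays at the right of each group. Each panel spans the same number of log2 units, so Rab33a, at 8.67 to 8.81 in the controls and 7.51 to 7.81 in the knockdown, shows the widest gap, and Rab36 the narrowest.

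Rab33a, a Rab of the Golgi and of vesicles that supply growing axons, had the strongest response among the members. It read 8.67, 8.81 and 8.71 against 7.51, 7.81 and 7.75. Every knockdown array lay below every control array by more than the spread within either group. The control mean was 8.73 ± 0.0725 (SD, n = 3) and the knockdown mean 7.69 ± 0.162 (SD, n = 3). The log2 fold change was therefore -1.04, with an SE of 0.0878 and an adjusted p = 7.08e-04 from limma. With the offset included, 48.6% of the control signal was left. Of all genes tested, it ranked as the 10th most negative change. It stayed at adjusted p = 0.0044 or lower without any 1 array, between -1.10 and -0.95. In the authors' own processed intensities, on a linear scale, it read 270, 307 and 293 against 102, 129 and 118. There the log2 fold change was -1.31. Of the 10 neuron markers, 4 fell as well, namely Dcx (-0.71), Gap43 (-0.84), Elavl3 (-0.31) and Elavl4 (-0.60), while the other 6 lay between -0.20 and 0.20, and 5 of 6 precursor markers fell. The part of either cell type in the fall of Rab33a was not tested. Of the 4 neuron markers, Elavl3 passed only without knockdown replicate 3 when single arrays were dropped (up to 0.134), and Gap43 failed without control replicates 2 (0.0941) and 3 (0.0772) and knockdown replicate 1 (0.0596).

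Rab33b, its closest relative by name, is a Golgi Rab that binds the autophagy protein Atg16l1. It read 8.12, 8.21 and 7.96 against 8.16, 8.20 and 8.11, and the groups overlapped (log2 fold change 0.06, 95% interval -0.11 to 0.23). Here and below, relatives of the same number were looked up because 1 of them had passed, so their values are set side by side as a description. Over 7 pairs of relatives, an exact test on the difference by array gave p = 0.1 to 0.2 (0.1 for Rab33a and Rab33b). With 3 arrays per group that test cannot go below 0.1, so it cannot decide whether relatives differ.

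The sequences before the start sites of both genes are shown because Rab33a had the largest change of all members and Rab33b is its relative of the same number. They are 250 bases of RefSeq sequence (GRCm38.p6), 5′ to 3′ up to the base before the listed start, on the plus strand at chrX:48519035-48519284 for Rab33a and chr3:51483716-51483965 for Rab33b. Capitals mark a GC box. The Rab33a window lies downstream of the outermost start of that gene in the same annotation.
Rab33a: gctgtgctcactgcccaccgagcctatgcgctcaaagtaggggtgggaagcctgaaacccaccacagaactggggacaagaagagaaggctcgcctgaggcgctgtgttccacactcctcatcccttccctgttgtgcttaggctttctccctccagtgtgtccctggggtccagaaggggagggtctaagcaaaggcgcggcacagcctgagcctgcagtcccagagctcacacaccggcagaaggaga
Rab33b: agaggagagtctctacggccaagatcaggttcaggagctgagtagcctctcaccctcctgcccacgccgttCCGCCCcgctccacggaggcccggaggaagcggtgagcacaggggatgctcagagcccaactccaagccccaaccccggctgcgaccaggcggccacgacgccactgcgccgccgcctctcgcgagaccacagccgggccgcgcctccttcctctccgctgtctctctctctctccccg
The Rab33a window held 7 CpG and a GC content of 60.4%, and the Rab33b window 23 CpG and 69.2%. Over 60 windows of 48 Rab genes found in the table, the median was 15 CpG, and over all 32851 windows it was 6. The letters searched, on both strands, 7 short motifs, none of which contains another. The GC box, GGGCGG, occurred in 66.7% of Rab windows and 32.7% of all windows. The CCAAT box occurred in 40.0% and 33.8%, and TATAAA, the TATA box, in 6.7% and 12.4%. Of the E-boxes, CAGCTG occurred in 15% of Rab windows and 13% of all, whereas CACGTG was found in 8.3% and 6.0%. The SOX core AACAAT occurred in 6.7% and 9.4%, and the ATF4 composite site TGATGNAAT in 1.7% and 0.8%. The Rab33a window held none of these letters, which says only that they are not in these 250 bases.

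Among the other Rabs of the early secretory route and the Golgi, none passed. Rab33a was thus 1 of 12 in that group (8.33%, against 9.64% of all genes). Rab1b, which acts between the endoplasmic reticulum and the Golgi, read 8.28, 8.22 and 8.25 against 7.996, 8.06 and 8.08. Its groups did not overlap, but it missed the threshold (log2 fold change -0.21, SE 0.0585, adjusted p = 0.0591), except in the values processed by the authors (0.0433) and without the variance trend (0.0164). Rab2a, which acts on the same route, read 10.50, 10.30 and 10.44 against 10.16, 10.17 and 10.17 (-0.25, adjusted p = 0.0743, and 0.0414 without the variance trend). Rab1a, the brightest probe of the group, read 10.83, 10.93 and 10.95 against 11.01, 10.78 and 10.90, with overlapping groups (95% interval of the log2 fold change -0.19 to 0.18). Rab6a, of retrograde Golgi transport, read 0.17 (adjusted p = 0.173, and 0.0419 without the variance trend), and Rab18, of the endoplasmic reticulum and lipid droplets, 0.15. The remaining 6 genes (Rab2b, Rab6b, Rab19, Rab30, Rab33b and Rab43) lay between -0.06 and 0.06.

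**Figure D2:**
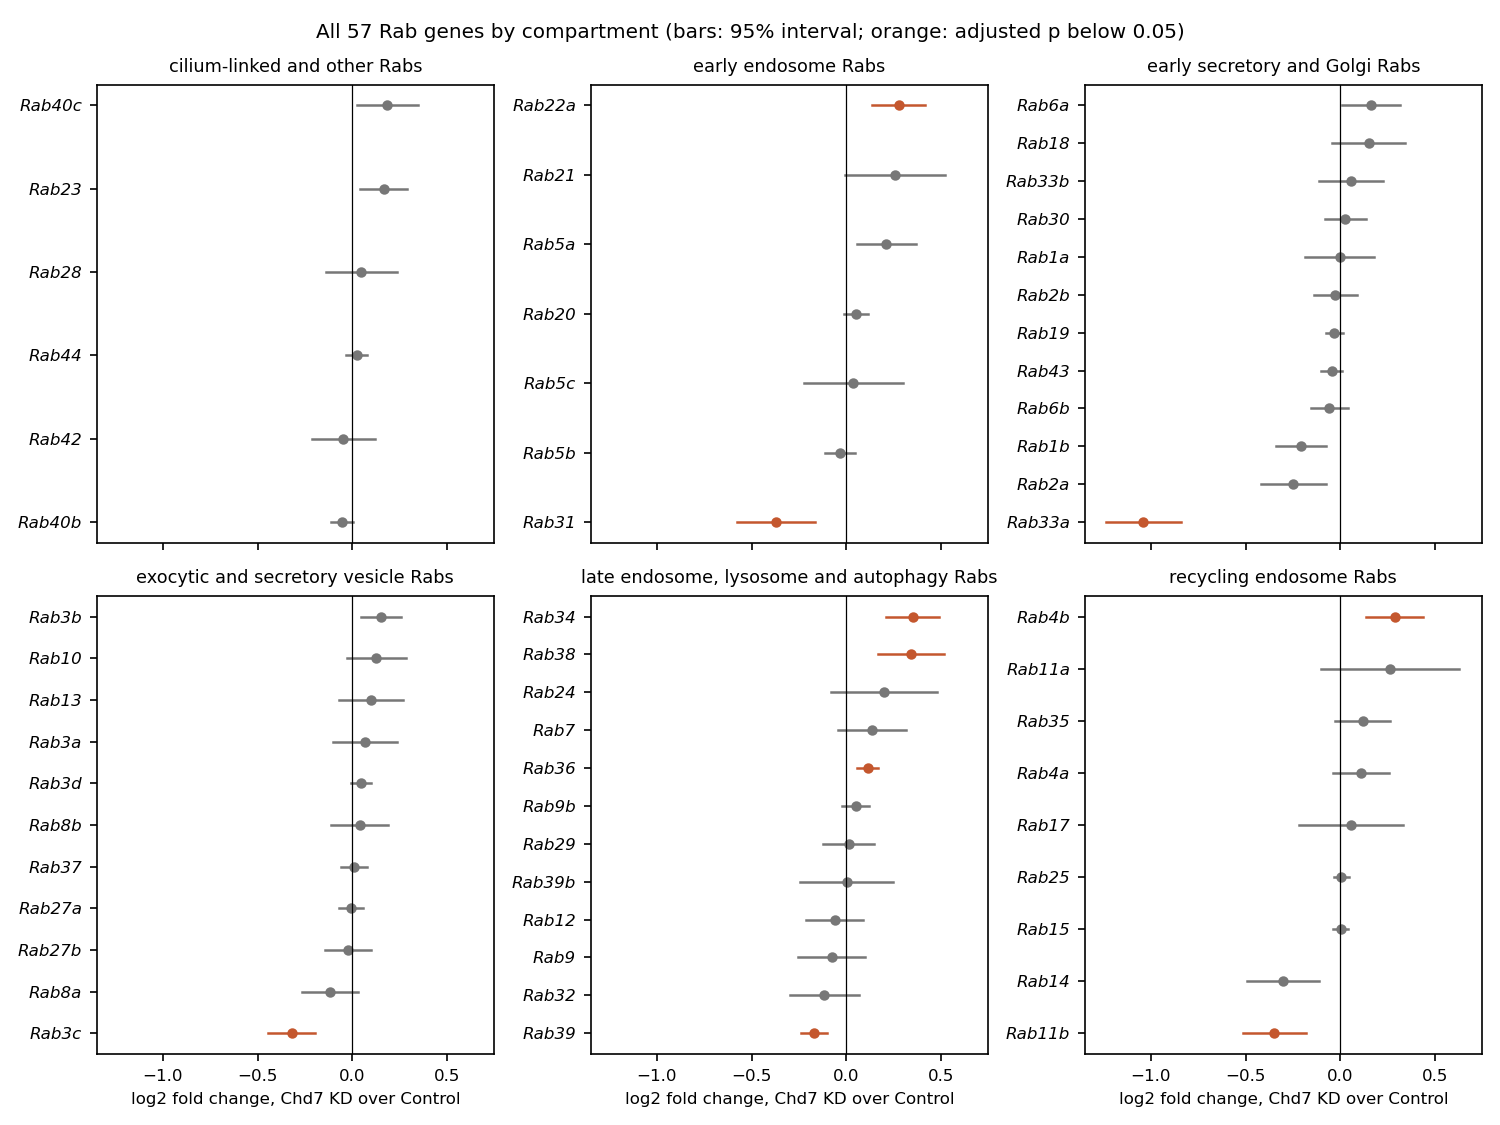
Log2 fold change of the knockdown over the control for all 57 Rab genes, grouped by compartment, with 95% intervals from the fit (orange, adjusted p below 0.05). On this scale, whose offset shrinks changes of dim genes most, Rab33a at -1.04 stands apart, and every other gene lies between -0.37 and 0.35.

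On early endosomes, where Rab5 proteins govern fusion and sorting after uptake, 1 of 7 genes rose and 1 fell. That was 28.6%, against 9.64% of all genes. Rab31, which serves traffic between the trans-Golgi and endosomes, had the brightest probe of the group and read 11.52, 11.62 and 11.71 against 11.08, 11.33 and 11.33 (log2 fold change -0.37, SE 0.0911, adjusted p = 0.0366). Rab22a, a relative that acts in sorting and recycling, moved the other way, from 7.56, 7.51 and 7.44 to 7.86, 7.73 and 7.75 (0.28, SE 0.0617, adjusted p = 0.0247). Neither pair of groups overlapped, but neither gene passed when any 1 array other than control replicate 1 was left out, nor with median scaling, in the authors' values, with scanner gain set as a block or without both arrays numbered 1 (adjusted p up to 0.144 for Rab31 and 0.0920 for Rab22a), and Rab31 was also lost with cyclic loess (0.0538). Rab5a read 10.07, 10.06 and 10.14 against 10.35, 10.31 and 10.25 (0.21, adjusted p = 0.0885, and 0.0229 without the variance trend). Rab21, of integrin traffic, read 8.74, 8.69 and 8.36 against 8.73, 9.04 and 8.80 with overlapping groups (0.26, SE 0.117, adjusted p = 0.217, and 0.0236 with scanner gain set as a block). Rab5c (0.04), Rab5b (-0.03) and Rab20 (0.05) were close to 0.

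On recycling endosomes, which return receptors to the surface, 1 of 9 genes rose and 1 fell (22.2%, against 9.64% of all genes). Rab11b read 8.81, 8.80 and 8.73 against 8.31, 8.496 and 8.498 (log2 fold change -0.35, SE 0.0734, adjusted p = 0.0205), with no overlap. The call was lost without control replicate 2 (0.0706) or knockdown replicate 1 (0.0695) and without both arrays numbered 1 (0.0853). The other Rab11b probe lay just over the limit (5.77 to 5.84) and gave a value of -0.01, so it bears little on the change. Rab11a, the major Rab of this compartment, read 10.84, 11.34 and 11.59 against 11.43, 11.55 and 11.58, where control replicate 1 is the low value and the groups overlap (0.26, 95% interval -0.10 to 0.63).

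Rab4b, of fast recycling, rose from 7.83, 7.74 and 7.68 to 8.02, 7.97 and 8.11 (0.29, SE 0.0659, adjusted p = 0.0274), and its groups did not overlap. It did not pass without any 1 array other than control replicate 1 (up to 0.0951), with median scaling (0.0708), in the authors' values (0.0629), with scanner gain set as a block (0.0572) or without both arrays numbered 1 (0.0559). Rab4a read 0.11 (adjusted p = 0.358, 95% interval -0.0396 to 0.26). Rab14, between the Golgi and endosomes, read 10.96, 10.81 and 10.97 against 10.48, 10.70 and 10.65 without overlap. It missed the threshold (-0.30, SE 0.0841, adjusted p = 0.055) and passed with the replicate number as a block (0.0374). Rab35 read 0.12 and Rab17 0.06, while Rab15 and Rab25 lay at the detection limit.

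**Figure D3:**
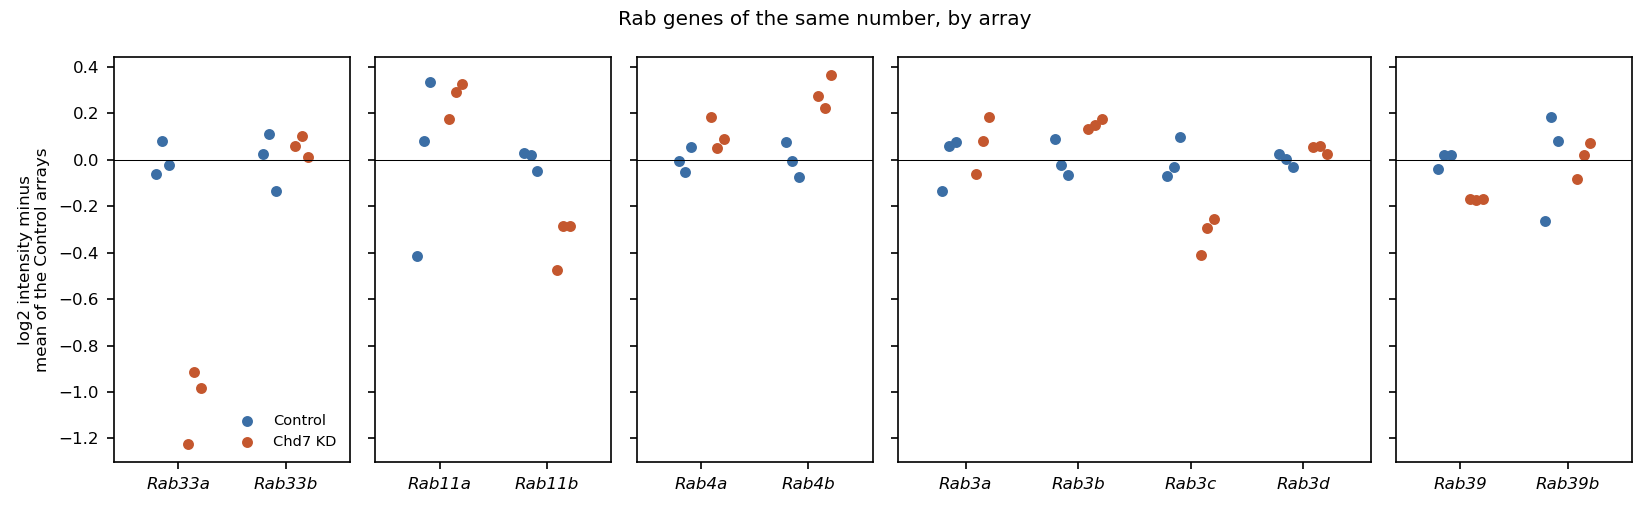
Log2 intensity minus the mean of the control arrays for Rab genes that share a number with a gene that passed, by array. Knockdown arrays of Rab33a lie about a log2 unit below the controls while those of Rab33b lie among them, and control replicate 1 of Rab11a stands below the other arrays.

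Among Rabs of late endosomes, lysosomes and autophagy 3 of 12 rose and 1 fell (33.3%, against 9.64% of all genes). Rab34, which places lysosomes and takes part in cilium formation, rose from 8.43, 8.42 and 8.51 to 8.81, 8.81 and 8.79, a tight set in the knockdown (log2 fold change 0.35, SE 0.0616, adjusted p = 0.00951). It passed without any 1 array (up to 0.0423) and lost the call, beside the single gain sets given at the end, with median scaling (0.0582), after dropping both arrays numbered 1 (0.0518) and in the authors' values (0.0534). Its relative Rab36 rose from 5.92, 5.97 and 5.98 to 6.07, 6.08 and 6.05 (0.11, SE 0.024, adjusted p = 0.0206). Rab36 was dim, 7.92 to 10.9 units above blank in the controls and 14.1 to 16.4 in the knockdown, and the log2 fold change was 0.24 with a normexp offset of 16 and 0.61 in the authors' values (adjusted p = 0.0400). The Rab36 call ended when control replicate 1 (0.0506) or the first (0.0727) or second (0.0750) knockdown array was dropped, with median scaling (0.0541) and without both arrays numbered 1 (0.116) or the variance trend (0.0504).

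Rab38, of melanosomes and lysosome-related organelles, rose from 6.82, 6.77 and 6.77 to 7.31, 7.05 and 7.01 (0.34, SE 0.0776, adjusted p = 0.0267), and knockdown replicate 1 was the highest. The call ended when the second (0.0845) or the third (0.0748) control array or the second knockdown array (0.0506) was dropped, in the authors' values (0.57, adjusted p = 0.0722), without the variance trend (0.0542) and with scanner gain set as a block (0.0628). Rab32, its partner on these organelles, read -0.12 with overlapping groups. Rab39 (Rab39a in other species), of late endosomes, fell from 6.27, 6.33 and 6.33 to 6.14, 6.14 and 6.14 (-0.17, SE 0.0293, adjusted p = 0.0088) and passed without any 1 array (up to 0.0411).

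Rab39 was dim too, and the change was -0.31 with a normexp offset of 16 and -0.50 in the authors' values (adjusted p = 0.0248). Rab39b, a relative linked to neuronal traffic, read 7.58, 8.03 and 7.93 against 7.76, 7.87 and 7.92, with overlapping groups. Rab7, which directs late endosomes to lysosomes and was the brightest probe of this group, read 11.27, 11.20 and 11.17 against 11.29, 11.27 and 11.49 (0.14, 95% interval -0.04 to 0.32). The other members, Rab9, Rab9b, Rab12, Rab24 and Rab29, lay between -0.08 and 0.20.

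Of 11 exocytic and secretory vesicle Rabs 1 fell and none rose (9.09%, against 9.64% of all genes). Rab3c, of the Rab3 family of synaptic and secretory vesicles, fell from 6.45, 6.48 and 6.62 to 6.10, 6.22 and 6.26 (log2 fold change -0.32, SE 0.0549, adjusted p = 0.00859). The groups did not overlap, and the gene passed without any 1 array (up to 0.0382). It was dim, at 33.3 to 45.2 units above blank in the controls and 18.2 to 26.5 in the knockdown, and the log2 fold change was -0.55 with a normexp offset of 16 and -0.89 in the authors' values (adjusted p = 0.0239). Of the neuron markers, 4 of 10 fell, while Snap25 (0.01) and Syt1 (0.20), genes of the synaptic vesicle fusion machinery, did not, and the part of neurons in this result was not tested.

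None of the other Rab3 genes passed. Rab3b read 6.58, 6.47 and 6.43 against 6.63, 6.64 and 6.67 (0.15, adjusted p = 0.0799, 0.0284 without control replicate 1 and 0.0369 with array weights). Rab3a read 0.07 and Rab3d 0.05. Rab10, the brightest probe of this group, which acts in polarised exocytosis, read 9.75, 9.66 and 9.64 against 9.78, 9.79 and 9.87 (0.13, adjusted p = 0.303). Rab8a read -0.12, Rab8b 0.04 and Rab13 0.10, and the secretory Rab27a, Rab27b and Rab37 lay between -0.02 and 0.01.

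None of the 6 cilium-linked and other Rabs passed in limma. Rab23, a negative regulator of Hedgehog signalling, read 0.17 (unadjusted p = 0.0133, adjusted p = 0.0907, and 0.0462 without the variance trend) and Rab40c, which recruits a ubiquitin ligase, 0.19 (unadjusted p = 0.0281, adjusted p = 0.145). Both had groups that did not overlap. Rab28, of photoreceptor cilia and the brightest probe of the group, read 10.42, 10.40 and 10.48 against 10.63, 10.42 and 10.39, and Rab40b, Rab42 and Rab44 lay between -0.05 and 0.03.

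**Figure D4:**
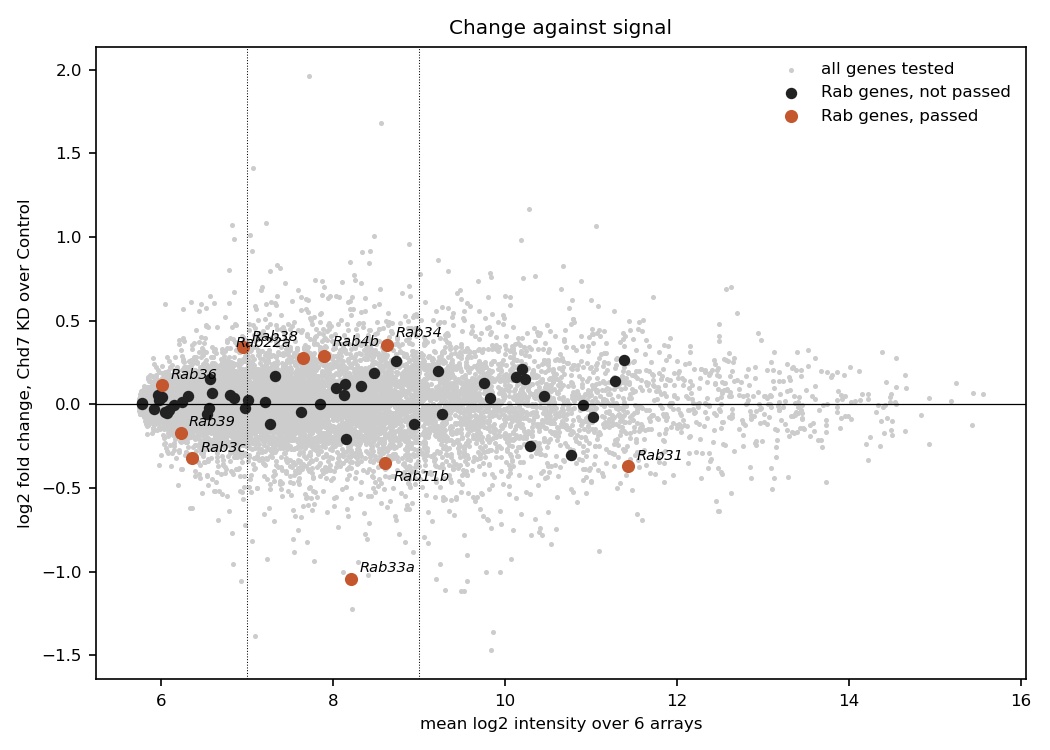
Log2 fold change against mean log2 intensity over 6 arrays for all genes tested (grey) and the 57 Rab genes (black, not passed; orange, passed), with dotted lines at 7 and 9. Of the Rab genes above 9, only Rab31 passed.

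The calls were also counted by signal. Below a mean log2 intensity of 7, 4 of 23 Rab genes passed (17.4%, against 5.74% of all genes in that band). Between 7 and 9 it was 5 of 19 (26.3%; of all 4534 genes in that band, 336 rose and 369 fell), and at 9 or above 1 of 15 (6.67%, against 15.4%). Intensities also depend on the probe, so the bands do not rank transcripts by abundance. The 47 Rab genes that did not pass lay between -0.30 and 0.26, and for 45 of them the 95% interval stayed within 0.5 of 0 on the log2 scale. Of the 47, 29 read less than 0.1 in size. However, 19 of the 47 had a mean below 7, where the normexp offset shrinks changes. For those 19 genes, a narrow interval does not bound the unshrunk change. For example, Rab20 read 0.05 (95% interval -0.01 to 0.12) but 0.37 in the authors' values, where it did not pass. Rab8b, also below 7, read 0.04 and, in the authors' values, 0.06.

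The proteins that load, extract and use Rabs were read from the same fit. Of 133 tested regulators, effectors and Rab-like GTPases, 10 passed (7.52%, against 9.64% of all genes), 3 higher and 7 lower, with a median of -0.0095. With the replicate number as a block 18 passed, against 14.8% of all genes. None of 6 genes for GDI, prenylation and delivery passed in limma (0 at adjusted p below 0.05, and 2 with the block, Rabggta at 0.0368 and Rabggtb at 0.022). Rabggtb, a subunit of the enzyme that attaches the lipid anchor, read 9.99, 9.81 and 9.76 against 10.29, 10.02 and 10.15 (0.30, adjusted p = 0.0797), and its partner subunit Rabggta -0.19 (0.0705).

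Of 31 GEF genes 2 fell (6.45%, against 9.64% of all genes). Ccz1, part of the exchange factor for Rab7, read 9.52, 9.66 and 9.80 against 9.19, 9.33 and 8.73 (-0.57, SE 0.146, adjusted p = 0.0406), and its call ended when the second (0.106) or the third (0.117) control array, or the first (0.0841) or the third (0.0687) knockdown array, was dropped. Sbf2, an exchange factor of the DENN family, read -0.21 (adjusted p = 0.0345), which did not hold without any 1 array (up to 0.126). Of 35 GAP genes 2 rose and 1 fell (8.57%). Tbc1d13, a GAP for Rab35, rose from 6.48, 6.43 and 6.42 to 6.62, 6.74 and 6.81 (0.28, SE 0.053, adjusted p = 0.0127) and passed without any 1 array, with 0.44 at a normexp offset of 16 and 0.59 in the authors' values. Rab3gap1 rose by 0.19 (adjusted p = 0.0378) but was lost without any 1 array (up to 0.131), and Tbc1d17 fell by 0.24 (0.0235) but passed only without control replicate 2 among the fits that left out 1 array (up to 0.0861).

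Of 56 effector genes 1 rose and 3 fell (7.14%, against 9.64% of all genes). Rufy3, a RUN domain protein of the axon growth machinery, fell from 8.86, 8.57 and 8.40 to 7.51, 7.67 and 7.64 (-1.004, SE 0.109, adjusted p = 0.00157). Mical1, an actin-oxidising enzyme that binds Rabs, fell from 6.88, 6.62 and 6.73 to 6.32, 6.32 and 6.32 (-0.42, SE 0.0612, adjusted p = 0.00449). Both passed without any 1 array, and Mical1 read -0.67 with a normexp offset of 16 and -0.94 in the authors' values. Rabep1, a Rab5 and Rab4 effector, read -0.19 (adjusted p = 0.0322) and passed only without control replicate 3 among those fits (up to 0.117). Atg16l1, the partner of Rab33b named above, rose from 6.79, 6.79 and 6.85 to 7.04, 6.95 and 7.02 (0.19, SE 0.0482, adjusted p = 0.0382), but not without any 1 array (up to 0.129). Of 5 Rab-like GTPases Rabl6 fell (-0.35, SE 0.0535, adjusted p = 0.00529), also without any 1 array.

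**Figure D5:**
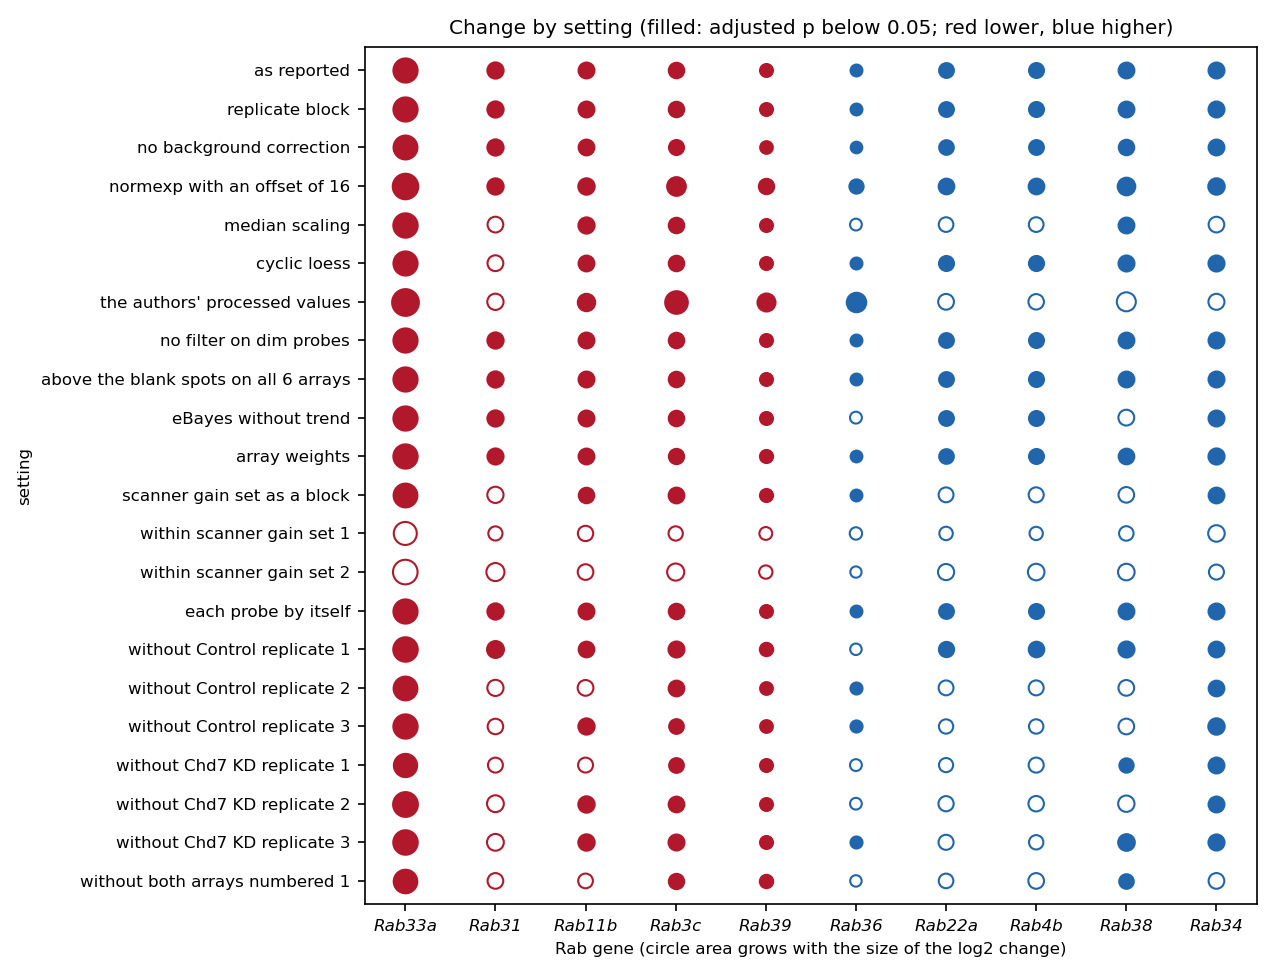
The 10 Rab genes that passed, by setting: filled circles passed, open circles did not, red is lower and blue higher in the knockdown, and area grows with the size of the log2 change. Direction is the same in every setting, and Rab33a, Rab3c and Rab39 are filled in every setting except within single scanner gain sets.

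Which of the 10 calls held depended on the arrays. Dropping the first control array left 10 calls (Rab36 lost and Rab3b gained), dropping the second left 5 and the third 6. Dropping the first or second knockdown array left 5 calls each, and the third 7. Rab33a, Rab34, Rab39 and Rab3c passed in each of these 6 fits. The headers showed 2 sets of scanner gain slopes, each with arrays of both groups, treated here as possible batches. Within the first set, of 2 control and 1 knockdown array, Rab33a read -0.93 (adjusted p = 0.0613), and within the second, of 1 control and 2 knockdown arrays, -1.08 (0.0591). Rab3c read -0.24 and -0.43, Rab39 -0.16 and -0.19, and Rab34 0.39 and 0.29, so each kept its sign, and none of the 57 passed in either set. Rab31 read -0.24 and Rab4b 0.19 in the first set, and Ccz1 -0.26.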

How the data were processed

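Total RNA was labelled with Cy5 and hybridised to one-colour TORAY arrays, 1 per sample, per the labels' protocols. Per the file headers, the authors scanned at 635 nm with 3 gains and joined these by least squares into 1 intensity, a spot's median; other upstream steps are not given in the sources used here. The second table of intensity values processed by the authors has a median of 25 per array and served as an alternative (log2(value + 1), missing values set to 1).

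Spot intensities were corrected with normexp (offset 50, no local background), quantile normalized and fitted with lmFit and eBayes with a trend in limma 3.58.1 (statmod 1.5.0, R 4.3.3), two-sided, with Benjamini-Hochberg adjustment over 17390 genes. The offset shrinks changes, most in dim genes. A probe was tested if, on 3 or more arrays, its raw signal exceeded the blanks' mean plus 2 SD, and 1 probe marked bad was left out. Median raw intensity was 83.4 to 89.4 against blanks of 58.9 to 61.9, and 87.0% to 89.8% of probes were detected. The number of arrays limits the precision. Symbols came from the platform annotation (20690 probes), checked by Entrez ID against RefSeq (20556 matched, 0 changed), and the probe with the highest mean stood for a gene. Probe sequences were not used here, so cross-hybridisation between Rab genes was not tested. Figures used matplotlib 3.10.9. Only the fit was tested on simulated data with independent noise. Changes were planted after normalization in probes with a mean above 7, so that test does not cover dimmer genes or the offset.

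The labels number both groups 1 to 3. After subtraction of its group's mean, each array was correlated with its namesake (0.36, 0.38 and 0.23). Control and knockdown arrays of different number gave -0.32 to -0.01. Subtracting the group means makes such values negative on the whole once the namesakes are positive, so they add no support. The numbers may pair the samples, an inference from the namesake values only. The reported fit has no block, because the labels do not say what the numbers mark, and the block served as an alternative. Named were Chd7, Rab genes that passed, the 6 largest changes among the others, the brightest probe per compartment, relatives of the same number, and up to 6 genes that passed per regulator list; others were added after their values were seen. Members and lists were chosen with earlier results of these data known. Alternatives were other background, normalization, filter, variance and batch choices and leaving out arrays.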

Additional observations from a re-analysis of the deposited data

How the results depend on the processing

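Every Rab gene that passed kept its direction in all 21 alternatives. With the replicate block 11 Rab genes passed (Rab14 was added), 18 regulators and effectors and 2577 of all genes, and it changed no other call among the Rab genes. Leaving out 1 array gave 5 to 10 Rab genes (1 to 5 higher, 3 to 5 lower), 4 to 9 regulators and effectors, 750 to 1453 of all genes and -0.97 to -0.83 for Chd7. Without both arrays numbered 1 there were 4 Rab genes (1 higher, 3 lower), 4 regulators and effectors and 800 of all genes. Median scaling left 5 Rab genes, 1 of them higher. The authors' values left 6, 1 of them higher, and 1030 of all genes (332 higher and 698 lower, against 781 and 896). Scanner gain set as a block left 7 Rab genes, 3 of them higher, and 4 regulators and effectors. Within each gain set by itself 0 Rab genes (0 higher, 0 lower) and 0 regulators and effectors passed, with 39 of all genes in each, and Chd7 read -0.88 (adjusted p = 0.101) and -0.95 (0.0591); these fits rest on 3 arrays and assume that the lone array varies like the others. The cause of the other changes was not tested.

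Among the Rab genes named by rule, signs turned in 6. Rab39b read -0.0166 with median scaling, -0.0372 in the authors' values, -0.0616 with array weights, -0.0132 with gain set as a block, -0.0867 within the second gain set and -0.0870 without both arrays numbered 1. Within the second gain set Rab11a (0.26 overall) read -0.0843, Rab1a 0.0117 and Rab3a -0.0152, and without both arrays numbered 1 Rab28 read -0.0349. Leaving out 1 array gave ranges of -0.131 to 0.0951 for Rab39b, -0.0598 to 0.0554 for Rab1a, -0.00052 to 0.13 for Rab3a, -0.0097 to 0.11 for Rab33b and -0.0275 to 0.0949 for Rab28. Rab3c, Rab36, Rab38 and Rab39 had a mean log2 intensity below 7, and their changes were over 1.5 times larger in the authors' values. Among regulators and effectors the same held for Mical1 (-0.94), Tbc1d13 (0.59), Rabep1 (-0.37), Atg16l1 (0.31, adjusted p = 0.0740) and Rab3gap1 (0.30, 0.0888). Tbc1d17 (-0.42) and Sbf2 (-0.35) were also over 1.5 times larger there, although their mean was not below 7.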

Other observations

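The genes next to the 10 Rab genes that passed were read from the same fit, by the gene order of the RefSeq annotation, with 2 protein-coding genes on each side. Of 40 such neighbours 36 were tested, 2 rose and 3 fell (13.9%, against 9.64% of all genes), and these comparisons were chosen after the Rab values were seen. Both genes that rose flank Rab38. Ctsc, which encodes the lysosomal protease cathepsin C, read 9.45, 9.35 and 9.44 against 10.03, 9.86 and 10.04, control before knockdown (log2 fold change 0.56, SE 0.0763, adjusted p = 0.00357 in limma). Tmem135, a membrane protein gene on the other side, read 8.24, 8.22 and 8.15 against 8.69, 8.46 and 8.51 (0.35, SE 0.075, adjusted p = 0.0214). Ctsc passed without any 1 array, while the call of Tmem135 ended when the second (0.0642) or the third (0.0674) control array, or the first (0.0681) or the third (0.0529) knockdown array, was dropped. With Rab38 at 0.34, 3 adjacent genes were higher in the knockdown, and the next genes outward, Grm5 (-0.04) and Fzd4 (0.04), did not pass. In the authors' values Ctsc passed (adjusted p = 0.0239 in limma), but Tmem135 (0.0888) and Rab38 (0.0722) did not. Tmem135 also failed with median scaling (0.0703) and with scanner gain set as a block (0.0512), and Rab38 with that block (0.0628).

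The 4 neighbours of Rab33a, namely Elf4, Aifm1, Zfp280c and Slc25a14, read between 0.0018 and 0.14, and none passed at the adjusted threshold in limma. The genes that fell were Kank3 near Rab11b (-0.16, adjusted p = 0.0262), Slc35f2 next to Rab39 (-0.10, 0.0267) and Snrpa near Rab4b (-0.30, 0.0266), which itself rose. When single arrays were dropped, Kank3 passed only without control replicate 3 (up to 0.0879), Slc35f2 only without control replicate 1, control replicate 2 or knockdown replicate 3 (up to 0.0977), and Snrpa in none of these fits (up to 0.107). In the authors' values Kank3 read -0.40 (adjusted p = 0.0462 in limma) and Slc35f2 -0.80, which did not pass (0.0847).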
